A study of Mus musculus with 6 samples.

Results

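The 8 genes described here carry and sense bile acids in the epithelium of the ileum, the last segment of the small intestine. They are Slc10a2, Slc51a, Slc51b, Fgf15, Nr1h4, Nr0b2, Abcc2 and Abcc3, chosen by gene symbol from the platform annotation. All 8 were measured, each by 1 probe set, among 19505 genes with a symbol and 22206 transcript probe sets. The data are 6 single-colour arrays of RNA labelled as colon crypt RNA of C57BL/6J mice. Crypts are the glands of the bowel lining. The 3 arrays titled PBS are labelled as control mice, and the 3 titled MBELN as mice that received exosome-like nanoparticles from mulberry bark by gavage for 7 days. The labels give no sex, age or other treatment, and whether the 3 arrays of a group come from different mice is not stated. The p-values therefore reflect variation between arrays, part of which may be technical. Marker genes, read below, differ widely between the arrays of a group, so this variation also takes in unlike tissue profiles.

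Bile acids are made in the liver, secreted into the gut to dissolve fat, and taken back mainly in the ileum. There Slc10a2 carries them in from the lumen, and the Slc51a and Slc51b heterodimer passes them out toward the blood. Inside the cell they activate Nr1h4, the farnesoid X receptor, which raises transcription of Fgf15, a hormone that lowers bile acid synthesis in the liver. The colon handles far less bile acid by active transport, so some of these genes also bear on which gut segment an RNA came from.

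The sequences just upstream of transcription start are shown for the 3 transporter genes with the same high and low arrays among the PBS arrays and for Nr1h4, which was high in all 3. They come from RefSeq, build GRCm38.p6, whose promoter table held 6 of the 8 genes and no entry for Fgf15 and Abcc3. Each run covers the 250 bases before the start, 5′ to 3′ on the gene's strand. Capitals mark the GATA motif (the letters GATA with A or T before them and A or G after them, either strand). The Slc10a2 run lies at chr8:5105288-5105537 on the minus strand, that of Slc51a at chr16:32487880-32488129, that of Slc51b at chr9:65422774-65423023 and that of Nr1h4 at chr10:89506659-89506908, all on the minus strand.
Slc10a2: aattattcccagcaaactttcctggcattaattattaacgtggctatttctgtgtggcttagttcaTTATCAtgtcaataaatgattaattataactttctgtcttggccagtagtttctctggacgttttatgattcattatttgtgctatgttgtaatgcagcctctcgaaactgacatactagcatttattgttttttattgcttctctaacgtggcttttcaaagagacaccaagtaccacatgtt
Slc51a: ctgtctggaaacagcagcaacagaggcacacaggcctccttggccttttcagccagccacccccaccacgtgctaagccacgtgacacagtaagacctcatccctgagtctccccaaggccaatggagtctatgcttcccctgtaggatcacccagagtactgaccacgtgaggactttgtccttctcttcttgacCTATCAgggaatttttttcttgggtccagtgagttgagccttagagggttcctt
Slc51b: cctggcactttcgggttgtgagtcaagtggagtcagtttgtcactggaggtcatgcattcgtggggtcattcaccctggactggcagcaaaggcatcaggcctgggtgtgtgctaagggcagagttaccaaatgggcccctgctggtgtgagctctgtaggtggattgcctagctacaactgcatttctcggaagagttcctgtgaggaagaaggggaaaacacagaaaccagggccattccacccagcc
Nr1h4: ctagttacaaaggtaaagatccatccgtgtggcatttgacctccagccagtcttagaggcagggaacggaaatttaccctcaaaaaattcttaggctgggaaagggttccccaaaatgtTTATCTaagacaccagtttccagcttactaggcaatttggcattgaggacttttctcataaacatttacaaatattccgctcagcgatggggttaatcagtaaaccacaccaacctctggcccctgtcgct

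A GATA motif was present in 5 of the 6 promoters, those of Slc10a2, Slc51a, Nr1h4, Nr0b2 and Abcc2, against 26.54% of all 32851 promoters in the table. The letters G and C made up 34.4% (Slc10a2) to 54.8% (Slc51b) of the 6 windows, beside a median of 52.4% over all promoters. The motif is rich in A and T, and promoters of like G and C content were not compared. The 26.54% therefore cannot show an excess of the motif. The farnesoid X receptor inverted repeat (GGTCA, any base, then TGACC, which reads the same on both strands) was in 0 of the 6 windows and in 0.03% of all promoters. The HNF4 direct repeat (AGGTCA, any base, then AGGTCA) and the LRH-1 motif (CAAGGTCA) were also in 0 of the 6, against 0.03% and 1.33% of all promoters, with both strands searched. An HNF1 motif was planned as well but was not searched. A match describes letters and not a bound site, and the motif letters were chosen after the sequences had been seen.

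The tissue labels were checked against marker genes before the bile acid genes were read. Values are the deposited ones, taken as log2, and reach at most 19.93. A gene is called not above the dim level where it lies at or under the 95th percentile of 1414 probe sets for odorant and vomeronasal receptors, sensory genes the gut is not known for. This level was 3.99 to 4.44 across the arrays. Taken over 11 genes of gut epithelium, PBS 1, 2 and 3 had medians of 17.82, 17.79 and 17.91, whereas those of MBELN 1, 2 and 3 were 6.90, 3.35 and 5.78. Heart muscle genes had medians of 18.43 and 18.76 in MBELN 1 and MBELN 3, and neuronal genes a median of 15.84 in MBELN 2. Those 2 lists stood at 3.46 to 4.27 in the PBS arrays. The labels of the 3 arrays titled MBELN thus go against their markers, and what follows on them compares arrays under those titles.

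Slc10a2, the sodium-dependent bile acid transporter of the ileal brush border, had values of 17.12, 7.18 and 17.68 in the PBS arrays in order of their number, and of 3.63, 2.55 and 3.07 in the MBELN arrays. PBS 1 and PBS 3 were high, PBS 2 lay between them and the dim level, and no MBELN array was above that level. The difference from PBS 2 was 9.95 in PBS 1 and 10.51 in PBS 3 (log2). Of all probe sets, 0.351% and 0.297% differed at least as much, in either direction, in the same pairs of arrays. Each side of such a pair is 1 array, so these differences have no replicate check. In such bulk samples, fewer cells of a type and less RNA per cell cannot be told apart.

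**Figure D1:**
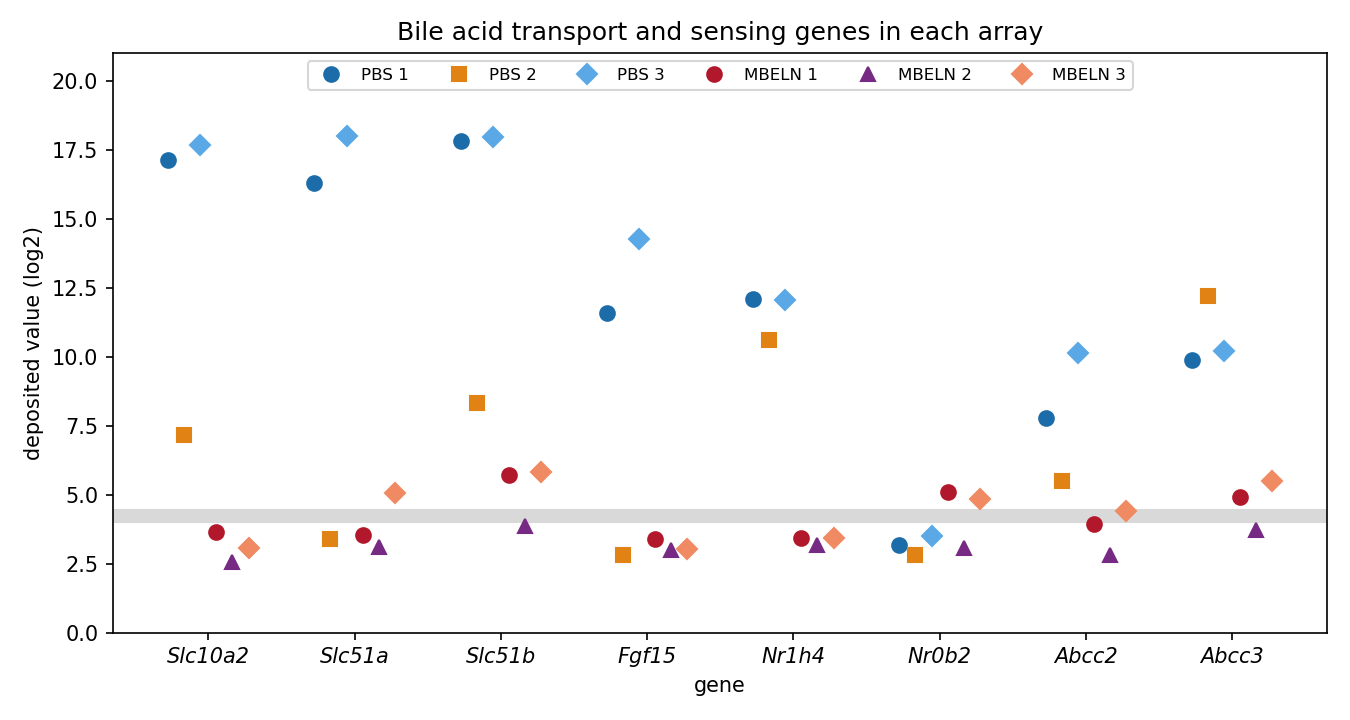
Deposited values (log2, vertical axis) of the 8 genes (horizontal axis), with 1 point per array and the grey band at the dim level of the arrays, 3.99 to 4.44. PBS 1 and PBS 3 stand together far above PBS 2 for Slc10a2, Slc51a, Slc51b and Fgf15, PBS 2 is highest for Abcc3, and Nr0b2 lies under the band in every PBS array.

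The basolateral exporter had both of its subunits high in the same arrays. Slc51a, the transport subunit, had PBS values of 16.28, 3.38 and 18.0 and MBELN values of 3.53, 3.12 and 5.06. Its value in PBS 2 was not above the dim level, so PBS 1 was at least 3958-fold and PBS 3 at least 13080-fold higher, taking the dim level of PBS 2 as the lower value. Slc51b, the partner that brings the complex to the membrane, read 17.82, 8.33 and 17.97 in the PBS arrays and 5.69, 3.86 and 5.80 in the MBELN arrays. Unlike Slc51a, it was above the dim level in PBS 2. Among the MBELN arrays Slc51b was above that level in MBELN 1 and MBELN 3, and Slc51a in MBELN 3 only. In PBS 2 the subunits therefore stood on different sides of the dim level. In MBELN 2 neither was above it.

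Fgf15, the hormone that the ileum sends to the liver, had PBS values of 11.60, 2.80 and 14.26 and MBELN values of 3.39, 2.99 and 3.04. It was above the dim level in PBS 1 and PBS 3 and in no other array. Taken against the dim level of PBS 2, the value was at least 154.1-fold higher in PBS 1 and at least 980.6-fold higher in PBS 3. Fgf15 also differed between PBS 1 and PBS 3, by 2.67 (log2), where 0.414% of probe sets differed as much.

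Nr1h4, the receptor that bile acids activate, followed another order. Its values were 12.10, 10.61 and 12.05 in the PBS arrays and 3.43, 3.17 and 3.44 in the MBELN arrays. PBS 2 lay 1.49 below PBS 1 and 1.44 below PBS 3 (log2), differences that 15.4% and 17.7% of probe sets matched or exceeded. The receptor was thus high in all 3 PBS arrays, including the array in which Fgf15 and Slc51a were not above the dim level. Nr0b2, the small heterodimer partner and a textbook target of Nr1h4, read 3.16, 2.82 and 3.49 in the PBS arrays. None of these values was above the dim level, in arrays where Nr1h4, Slc51b and, in PBS 1 and PBS 3, Fgf15 were. In MBELN 1, 2 and 3 Nr0b2 read 5.08, 3.07 and 4.83, above the dim level in MBELN 1 and MBELN 3.

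The ABC exporters split. Abcc2, which pumps conjugates out across the apical membrane, had PBS values of 7.78, 5.50 and 10.12 and MBELN values of 3.93, 2.82 and 4.41. It was lowest of the PBS arrays in PBS 2 and differed by 2.34 (log2) between PBS 3 and PBS 1. Abcc3, the basolateral exporter of conjugates and bile acids, read 9.87, 12.21 and 10.21 in the PBS arrays and 4.91, 3.73 and 5.49 in the MBELN arrays. It was the single member with its highest value in PBS 2, 2.34 above PBS 1 and just under 2 above PBS 3. Abcc3 was above the dim level in MBELN 1 and MBELN 3 and not in MBELN 2.

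Counted pair by pair, 5 of the 8 genes were higher in PBS 1 than in PBS 2 by over 2 log2 units, against 4.92% of all probe sets, and 1, Abcc3, was lower by as much, against 4.53%. PBS 3 exceeded PBS 2 by over 2 units for 5 of the 8 genes, against 5.12% of probe sets. The 5 genes were Slc10a2, Slc51a, Slc51b, Fgf15 and Abcc2 in both pairs. By the same measure 0 of the 8 were lower in PBS 3 than in PBS 2, against 5.08%, with Abcc3 just inside the limit (1 of 8 after quantile normalization). Between PBS 3 and PBS 1, 2 of the 8, Fgf15 and Abcc2, were higher in PBS 3 by over 2 units, against 0.234% of probe sets, and 0 were lower, against 0.716%. The genes were proposed with these values known, so the counts describe them and are not a test.

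**Figure D2:**
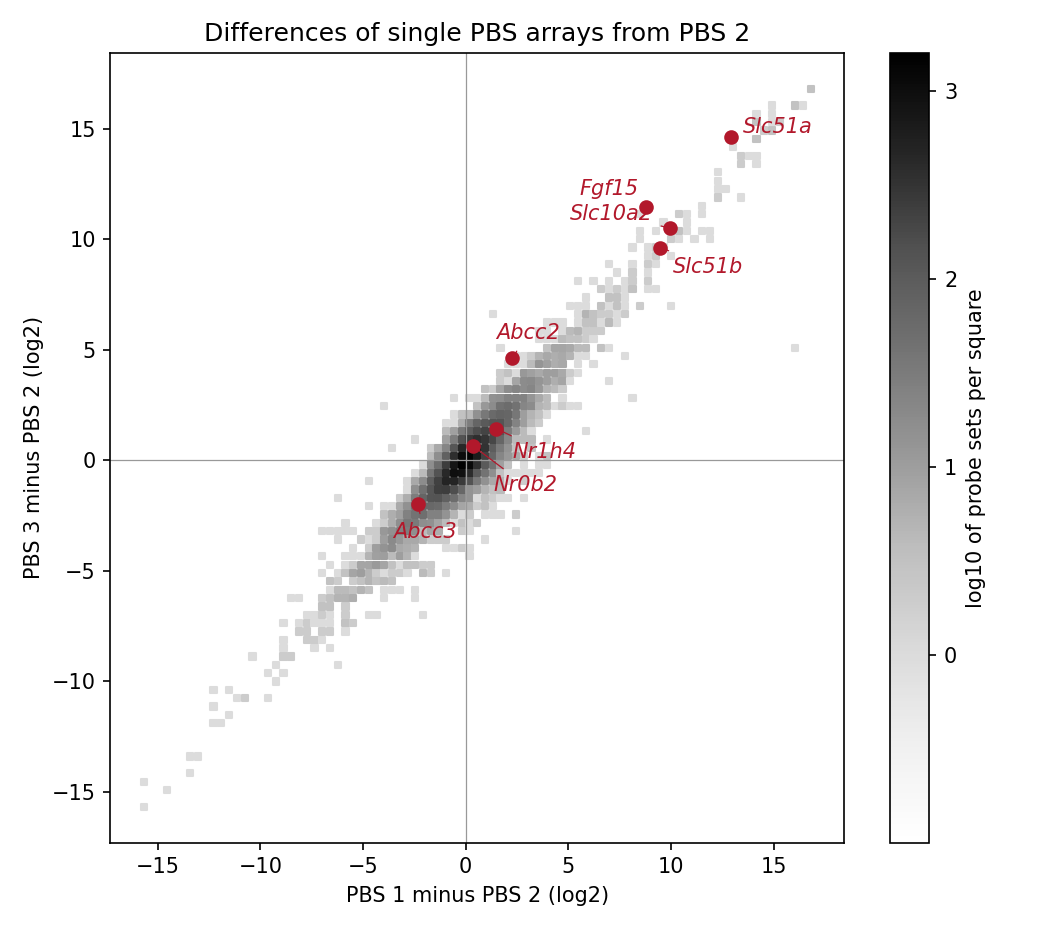
Difference of PBS 1 from PBS 2 (horizontal axis, log2) against that of PBS 3 from PBS 2 (vertical axis, log2), with grey squares for the number of probe sets among all 22206 and red points for the 8 genes. Slc10a2, Slc51b, Fgf15 and Slc51a lie between 8.79 and 14.63 on both axes, in the sparse upper right, while Abcc3 lies at -2.34 on the horizontal axis and just above -2 on the vertical.

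Marker lists of gut segments were then read in the PBS arrays. Of 11 genes of the distal small intestine, 10 were above the dim level in PBS 1 and in PBS 3 and 7 in PBS 2, with medians of 17.93, 17.58 and 4.76. Fabp6, the bile acid binding protein of ileal enterocytes, read 19.85, 4.76 and 19.85 in PBS 1, 2 and 3, close to the highest value of the scale in PBS 1 and PBS 3, where differences may be compressed. Cubn, the ileal receptor for vitamin B12 bound to intrinsic factor, read 17.78, 3.45 and 17.41. It was not above the dim level in PBS 2. Clec2h and Mep1a were high in all 3 arrays, with 15.79 and 15.62 in PBS 2, and Fam151a was not above the dim level in any.

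Of 12 genes of the proximal small intestine, 9, 7 and 10 were above the dim level in PBS 1, 2 and 3, with medians of 8.32, 5.14 and 9.01. Gata4, a transcription factor of duodenum and jejunum, read 3.91, 2.99 and 3.29, and Lct, the lactase, 3.34, 3.18 and 3.54. Both were not above the dim level in any PBS array. Rbp2, a retinol binding protein of enterocytes, read 13.20, 5.47 and 10.21, and Apoa4, an apolipoprotein of chylomicrons, 17.12, 5.28 and 15.12. Those genes were highest in PBS 1 and lowest in PBS 2, with PBS 3 minus PBS 1 at -2.99 for Rbp2 and -2.01 for Apoa4 (log2). Slc40a1, the iron exporter, went the other way with 9.49, 15.58 and 9.92. All 8 Paneth cell genes, which belong to small intestinal crypts, were above the dim level in PBS 1 and PBS 3, and 2 in PBS 2, with medians of 18.58, 3.63 and 19.13 in PBS 1, 2 and 3.

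Of 12 measured genes of colon epithelium, 3 were above the dim level in PBS 1, 11 in PBS 2 and 3 in PBS 3, with medians of 3.19, 11.36 and 3.20. Car1, a carbonic anhydrase of colonocytes, read 4.09, 19.79 and 5.29, and Hoxd13, a homeobox gene of the hindgut, 2.47, 11.96 and 2.44. Both were high in PBS 2 alone among the 6 arrays. B4galnt2, a glycosyltransferase placed on the colon list, ran against it with 18.64, 8.42 and 18.73, as did Retnlb with 8.10, 2.30 and 3.76. Read by these lists, PBS 2 carried the colon genes that its label names and PBS 1 and PBS 3 carried distal small intestinal and Paneth cell genes, and high Slc10a2, Slc51a, Slc51b and Fgf15 lay with the latter.

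**Figure D3:**
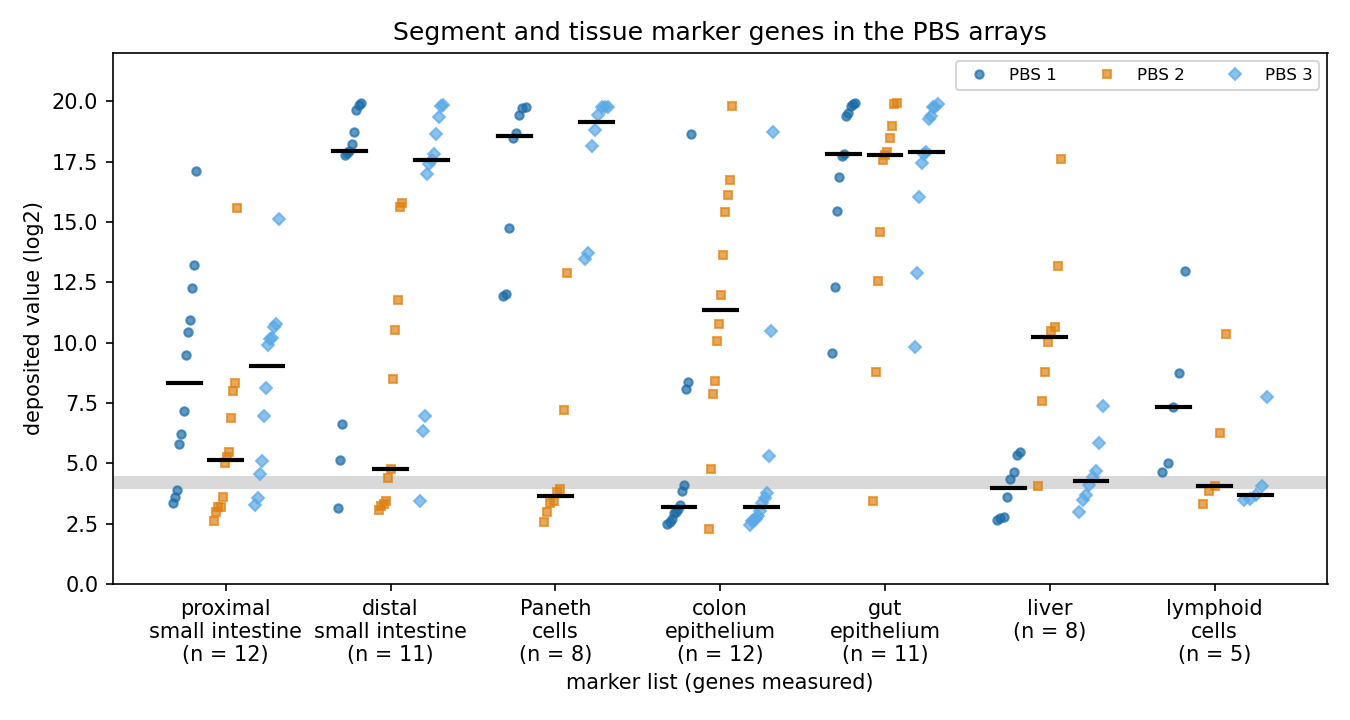
Deposited values (log2, vertical axis) of marker genes in PBS 1, 2 and 3, with 1 point per gene, black bars for list medians and the grey band at the dim level, 3.99 to 4.44. The distal small intestinal and Paneth cell medians are high in PBS 1 and PBS 3 (17.58 to 19.13), and the colon median is high in PBS 2 (11.36).

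Other tissues were also read beside these results. Of 8 liver genes, 7 were above the dim level in PBS 2, where their range was 4.07 to 17.59 and Alb, serum albumin, was the highest. The liver median was 3.98, 10.24 and 4.26 in PBS 1, 2 and 3. Nr1h4 and Abcc3 are also known from hepatocytes. In PBS 2, 3 of 6 hepatocyte bile transporters and 2 of 7 genes of bile acid synthesis and conjugation were above the dim level. Among those above it were Abcg5, Abcg8 and Cyp27a1, described below. Slc10a1, Abcb11, Cyp7a1 and Cyp8b1 were not above it, with 3.04, 3.66, 4.0 and 2.98. Of the 6 transporters, 1 was lower in PBS 1 than in PBS 2 by over 2 log2 units and 2 were higher. The part of liver RNA in the PBS 2 values of Nr1h4 and Abcc3 was not tested. The stromal median was 6.92, 11.84 and 6.97 in the PBS arrays and 10.49, 4.92 and 11.24 in the MBELN arrays. Of 5 kidney genes, 0 were above the dim level in any array.

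Beside the higher Fgf15 and Abcc2 of PBS 3 against PBS 1, the marker lists of the 2 arrays read as follows. The lymphoid median was 7.32, 4.07 and 3.70 in PBS 1, 2 and 3, and 3 of its 5 genes were lower in PBS 3 than in PBS 1 by over 2 log2 units. Cd79a, a B cell receptor chain, read 8.75, 6.26 and 3.70. Of the 8 Paneth cell genes 1 was higher in PBS 3 by over 2 units and 0 were lower, with a median difference of 0.65; that gene, Mptx2, read 14.76 in PBS 1 and 18.14 in PBS 3. Of the 12 proximal small intestinal genes 2, Rbp2 and Apoa4, were lower by over 2 units and 0 were higher, with a median difference of -0.21. Of the 11 distal small intestinal genes 0 were lower and 0 higher by over 2 units, with a median difference of -0.10. The part of lymphoid, Paneth cell or proximal small intestinal RNA in the Fgf15 and Abcc2 difference was not tested.

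The comparison the series was made for sets MBELN against PBS. In that comparison the arrays titled MBELN held lower values of Nr1h4 and Abcc3. The PBS mean of Nr1h4 was 11.59 ± 0.84 and the MBELN mean 3.35 ± 0.15 (SD, n = 3). The MBELN mean was thus at least 155.1-fold lower, with a difference of -8.24 ± 0.48 (SE, limma, adjusted p = 0.00143). Abcc3 averaged 10.76 ± 1.26 in PBS and 4.71 ± 0.90 in MBELN (SD, n = 3), with a difference of -6.05 ± 0.79 (SE, limma, adjusted p = 0.0142). Thus 2 of the 8 genes were lower, where 3.76% of all probe sets were called lower, and 0 were higher, where 1.42% were. At an unadjusted p under 0.05 in limma, 5 were lower, where 10.6% of probe sets were, and 0 higher, where 7.21% were. Leaving out PBS 1 ended the Abcc3 call (adjusted p = 0.0538), as did leaving out PBS 3 (0.0649), MBELN 1 (0.0666) or MBELN 3 (0.0531).

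The other 6 genes did not pass the threshold with all 6 arrays. Slc10a2 averaged 13.99 ± 5.91 over the PBS arrays and 3.08 ± 0.54 over the MBELN arrays (SD, n = 3; limma, adjusted p = 0.116), Slc51b 14.71 ± 5.52 and 5.12 ± 1.09 (adjusted p = 0.139). For Slc51a the difference was -8.65 ± 3.92 (log2, SE; adjusted p = 0.331) and for Fgf15 -6.41 ± 2.92 (adjusted p = 0.333). The spread among the PBS arrays was large for these 4 genes, with SDs of 5.52 to 7.99 against 0.84 for Nr1h4. Abcc2 differed by -4.08 ± 1.21 (adjusted p = 0.152) and Nr0b2 by 1.17 ± 0.60 (adjusted p = 0.394). In 5 of the 8 genes every MBELN value lay below every PBS value, against 13.4% of probe sets, and Slc51a, Fgf15 and Nr0b2 overlapped.

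Most of the missing calls rested on PBS 2, whereas Nr1h4 and Abcc3 were called with and without that array. Without it, 7 of the 8 genes were lower in MBELN, where 5.86% of probe sets were called lower, and 0 were higher, where 1.35% were. The differences were then -14.32 for Slc10a2, -13.24 for Slc51a, -12.78 for Slc51b and -9.79 for Fgf15 (log2; limma, adjusted p from 0.00167 to 0.00724). Abcc2 was also called, at -5.23 (limma, adjusted p = 0.0429). For each of these newly called genes PBS 2 held the lowest PBS value. The genes were proposed with these values known, so the counts without PBS 2 describe them and are not a test. Without MBELN 2, Nr0b2 was higher by 1.79 (adjusted p = 0.0181). In that fit 1 of the 8 was called higher, where 9.51% of probe sets were, and 2 were lower, where 7.32% were. Without both PBS 2 and MBELN 2, 7 genes were lower and 1 higher, where 15.4% and 15.1% of probe sets were. With all 6 arrays, 10 of the 11 gut epithelial genes were called lower in MBELN and 0 higher, with a median difference of -13.34, beside -7.32 over the 8 bile acid genes and 0.09 over all probe sets.

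**Figure D4:**
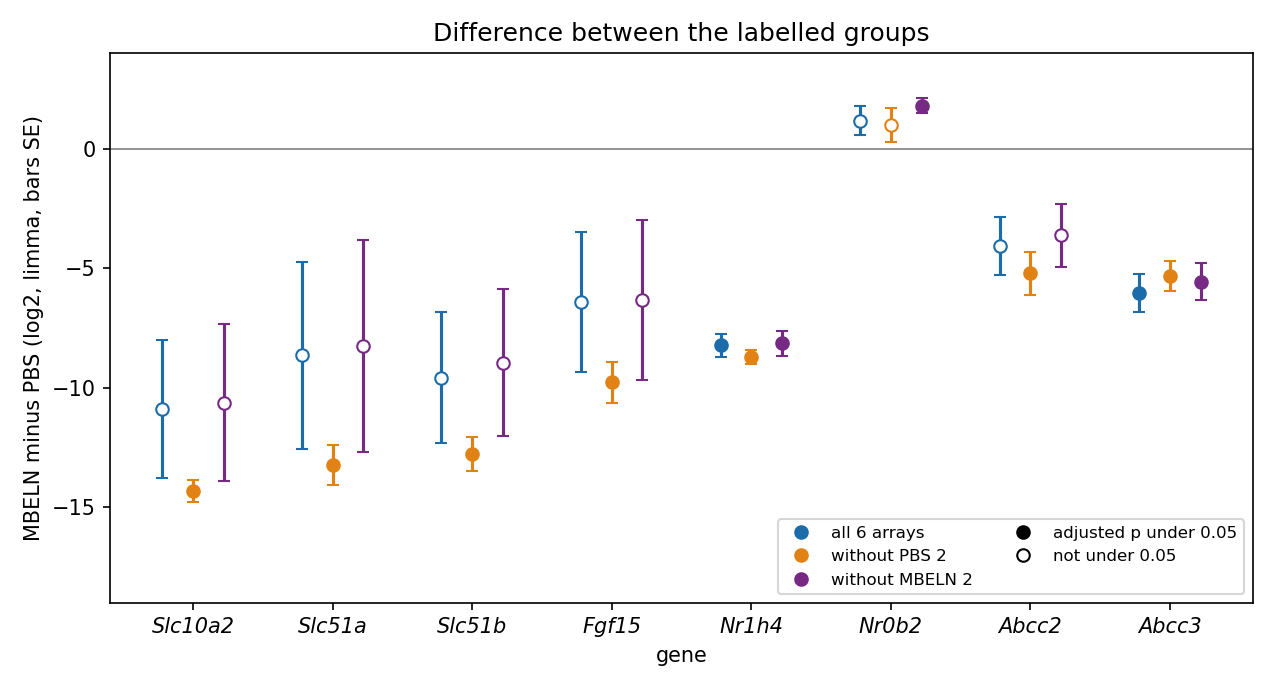
Difference of MBELN from PBS (log2, vertical axis) for each gene, from limma, with SE bars, for all 6 arrays, without PBS 2 and without MBELN 2, filled where the adjusted p was under 0.05. Nr1h4 and Abcc3 are filled in each setting shown, and Slc10a2, Slc51a, Slc51b and Fgf15 are filled without PBS 2, at -14.32 to -9.79.

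The arrays also fell into a higher and a lower level of hybridisation control probe sets, which are spiked in and carry no mouse sequence. PBS 2, MBELN 1 and MBELN 3 had means of 9.79 to 10.09, and PBS 1, PBS 3 and MBELN 2 means of 8.43 to 8.98. Within the higher level Nr1h4 differed by -7.18 and within the lower by -8.90, and by -8.04 with the level as a block. For Abcc3 these values were -7.01, -6.31 and -6.66. The higher level sets PBS 2 against MBELN 1 and MBELN 3, and the lower sets PBS 1 and PBS 3 against MBELN 2. Within the higher level 4 of the 8 genes were called lower, where 9.21% of probe sets were, and 1 higher, where 9.59% were. Besides Nr1h4 and Abcc3, those lower were Slc10a2, with a difference of -3.83 (limma, adjusted p = 0.00129), and Slc51b, with one of -2.59 (0.00656), and within the lower level they differed by -14.85 and -14.04. For Slc51a and Fgf15 the difference within the higher level was 0.92 and 0.42, neither of them called. Within the lower level it was -14.02 and -9.93. Nr0b2 was the gene called higher within the higher level, by 2.13 (limma, adjusted p = 0.0172), and it differed by -0.26 within the lower. In each level 1 group has a single array, assumed to vary like the other group.

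Other genes of the bile acid pathway were read from fixed lists, 37 measured of 40 listed. With all 6 arrays 6 were lower in MBELN, 0 were higher and 31 did not pass (limma; 0 higher at an unadjusted p under 0.05 as well), with a median difference of -0.48. Among nuclear receptors and gut transcription factors, 4 of 10 were lower. Hnf4a, a master regulator of enterocytes, read 14.82, 13.59 and 14.58 in PBS 1, 2 and 3 and was at least 1039-fold lower in MBELN (adjusted p = 0.000542). Nr5a2, also called LRH-1 and a partner in bile acid gene control, read 10.20, 7.58 and 10.31 and was at least 33.2-fold lower (adjusted p = 0.0163). Vdr and Nr1i2, receptors that also bind secondary bile acids, were the other two. Rxra, the partner with which Nr1h4 binds DNA, read 9.66, 8.19 and 9.66 in the PBS arrays and 8.67, 5.28 and 9.02 in the MBELN arrays (adjusted p = 0.550), so it was above the dim level in all 6.

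Maf, a transcription factor of distal enterocytes, read 12.70, 7.48 and 13.29 in PBS 1, 2 and 3, and Cdx2, the intestinal homeobox factor, 12.32, 3.45 and 12.88. Among the PBS arrays, both were high and low where Slc10a2 was. Gata4 read 11.32 and 12.14 in MBELN 1 and MBELN 3, the arrays with heart muscle genes, and Gata6 was above the dim level in all 6 arrays, at 7.29 to 7.84 in PBS. Of 4 measured genes for bile acid binding and for receptors of bile acids or of Fgf15, 0 passed the threshold, and Gpbar1, Fgfr4 and Klb stayed at 5.09 or lower in every array.

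Bile acid synthesis, a liver function, showed 0 of 7 genes past the threshold. Cyp8b1 and Slc27a5 were not above the dim level in any array, and Cyp27a1, which is widely expressed, was above it in all 6. Of 6 bile transporters of the hepatocyte list, 1 was lower in MBELN. This was Abcg5, which with Abcg8 exports sterols and is also found in enterocytes. It read 14.45, 9.08 and 14.81 in the PBS arrays and was at least 355.0-fold lower in MBELN (limma, adjusted p = 0.0354). Abcg8 read 11.75, 5.07 and 12.72, and Slc10a1 and Abcb11 were not above the dim level in any array. Of 10 further SLC10 and ABCC members, 1 was lower, Slc10a5, an orphan relative of Slc10a2, by 5.28 ± 0.61 (log2, SE; adjusted p = 0.00995). The median difference of those 10 was -0.10, beside -10.91 for Slc10a2 and -6.05 for Abcc3. Abcc5, an exporter of cyclic nucleotides, read 12.42 in MBELN 2 and 6.47 to 7.43 in the other 5 arrays.

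**Figure D5:**
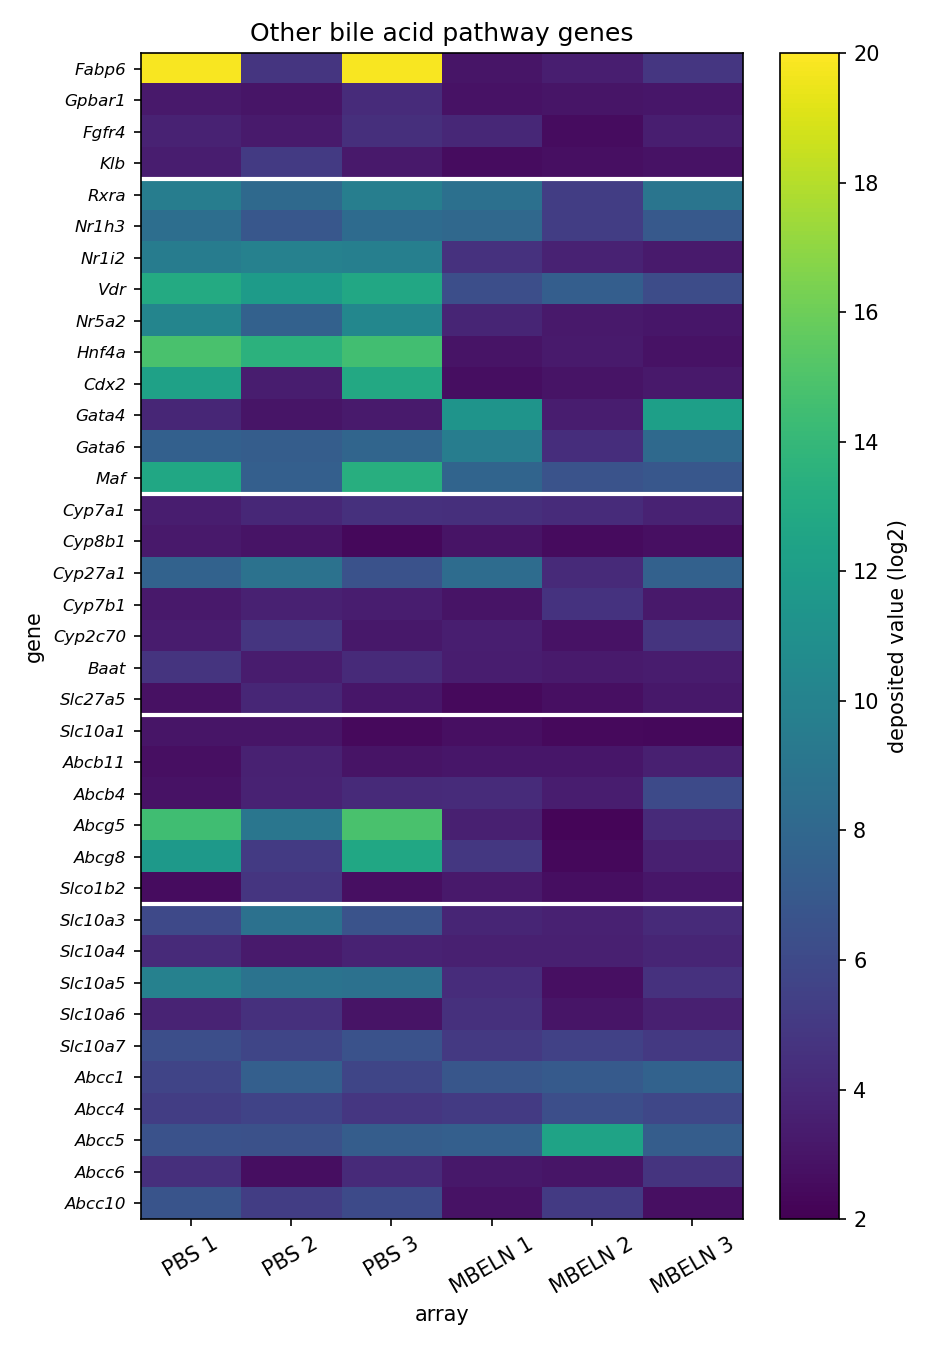
Deposited values (log2, colour) of 37 other bile acid pathway genes (rows, grouped by list with white lines between lists) in the 6 arrays (columns). Fabp6, Abcg5, Cdx2 and Maf share bright PBS 1 and PBS 3 cells and a darker PBS 2, while Hnf4a and Vdr are bright in all 3 PBS arrays.

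The profiles of the 8 genes over the 6 arrays were set against all other named genes by Euclidean distance, a measure that takes in both the level and the shape and so also each probe set's response. The nearest gene to Slc10a2 was Naaladl1, a peptidase on the distal small intestinal list, at a distance of 2.45 log2 units, and then Clca3b and Clps. Slc51a was nearest to Defa34, a Paneth cell defensin (1.97), Reg3g, an antibacterial lectin (1.98), and Slc13a1, a sulfate transporter (2.14). Slc51b lay nearest to B4galnt2 (1.25), Clca4a and Slc5a1, the glucose transporter. The nearest to Fgf15 were Defa26 (0.97), Mmp7 (1.43), the protease that activates defensins, and Defa40 (1.49). Paneth cell genes thus made up all 3 of its neighbours, in arrays where the Paneth median was 18.58 in PBS 1 and 19.13 in PBS 3.

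The remaining genes had neighbours of another kind. Nr1h4 was nearest to Degs2 (0.90), Calml4 and St14, an epithelial membrane protease, all high in the 3 PBS arrays. Abcc3 lay nearest to Akr1c13 (1.19), Sdcbp2 and Hsd17b2, which share its highest value in PBS 2. For Abcc2 the neighbours were Cdca3 (1.41), a cell division gene, Clca3a1 and Cldn2, a claudin of crypts. Nr0b2, close to the dim level throughout, was nearest to Acsm5 (0.65), Dusp27 and Pilra. Among the 8 genes themselves, Slc10a2 and Slc51b were the closest pair, at 3.91, followed by Nr1h4 and Abcc3 at 4.19 and Slc10a2 and Slc51a at 4.42, each over 6 arrays.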

How the data were processed

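Per the labels' protocols, Trizol was used for extraction and biotinylated cRNA was made from 90 ng of RNA after an Affymetrix protocol; an Ion AmpliSeq assay is named there too. The submitters' processing notes list Transcriptome Analysis Console 4.0. How the values were summarized and normalized, and on which build, is not given in the sources used here. Each array's deposited table column holds a value per probe set, taken to be log2 from its range (1.77 to 19.93); that scale is inferred. The 6640 array controls were left out of tests.

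MBELN was compared with PBS in limma 3.58.1 (R 4.3.3) on the deposited values of 22206 transcript probe sets, two-sided, without covariates, with Benjamini-Hochberg adjustment over all of them and a threshold of 0.05. In simulated data with known changes, 0%, 1.6%, 53.2% and 87.6% of changes of 1, 2, 4 and 8 log2 units were recovered. In the real data Slc10a2, Slc51b and Slc51a were not called at differences of -10.91, -9.59 and -8.65, with SEs of 2.74 to 3.92. The simulated shares thus cannot be read as the recovery for genes that vary so widely between the arrays of a group. A gene that was not called may therefore still differ. Folds given as at least N use the mean dim level of a group that was not above it in any array; for a single array, its own dim level. Precision is limited by the small number of arrays. Single PBS arrays were described and not tested.

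Genes named are the 8 members, genes of the fixed marker and pathway lists (proximal and distal small intestine, Paneth cells, colon and gut epithelium, heart muscle, neurons, liver, kidney, lymphoid cells, stroma and 5 pathway lists), and the 3 genes nearest to each member, leaving out predicted genes. Some listed genes are not reported here. Members and lists were chosen with earlier results of these data known. Alternatives covered normalization, dim probe sets, variance model, array weights, blocks, thresholds and left-out arrays; leaving out PBS 2 and MBELN 2 together was added after seeing the data.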

Additional observations from a re-analysis of the deposited data

How the results depend on the processing

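Under quantile normalization, median centring, leaving out dim probe sets, eBayes with trend and robust settings and the hybridisation control level as a block, the same 2 genes, Nr1h4 and Abcc3, were lower in MBELN and 0 were higher; probe sets called higher fell to 193 with the trend and robust settings. The mean of a gene's probe sets changes nothing here, since each of the 8 has 1. The counts were 7 lower and 1 higher with array weights (2887 and 2870 of all probe sets), 4 and 1 within the higher hybridisation control level (2045 and 2129), 7 and 0 within the lower (3503 and 3731), and 7 and 1 without PBS 2 and MBELN 2 (3415 and 3354). At an adjusted p of 0.01 they were 1 and 0 (339 and 68), and at 0.10 the probe sets called higher were 556. Leaving out 1 array in turn gave 1 to 7 genes lower and 0 to 1 higher, and 325 to 1626 probe sets lower and 51 to 2112 higher. The highest counts of the 8 genes came without PBS 2 (lower) and without MBELN 2 (higher). The sign turned within the higher level for Slc51a (0.92) and Fgf15 (0.42), and within the lower level for Nr0b2 (-0.26). With the replicate number as a block, 1 of the 8 genes was lower and 0 higher, and 393 and 63 probe sets were; Abcc3 was the call lost (adjusted p = 0.0927). Deviations from the group means correlated at -0.07 to -0.03 between arrays of the same number. Those deviations hold the unlike tissue profiles within each group, so they cannot show whether such arrays share more than a number. Between single PBS arrays, 1 gene was lower in PBS 3 than in PBS 2 after quantile normalization or at 2-fold, 0 were lower in PBS 1 than in PBS 2 at 8-fold, and 0 were higher in PBS 3 than in PBS 1 at 8-fold. Where no value or construction above shows it, the cause was not tested.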

Other observations

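The homeobox factors of the intestine did not run together in PBS 2. Cdx1 read 9.58, 8.78 and 9.84 in PBS 1, 2 and 3, while Cdx2 read 12.32, 3.45 and 12.88 and was not above the dim level in PBS 2. In the same array the hindgut genes Hoxb13 and Hoxd13 read 10.09 and 11.96, against 2.44 to 2.69 in PBS 1 and PBS 3, and the ion transport genes Aqp8, Atp12a and Fxyd4 read 16.13, 15.42 and 13.62. Dpep1, a brush border dipeptidase also on the distal small intestinal list, read 14.22 and 13.77 in MBELN 1 and MBELN 3 beside 2.47 in MBELN 2, and Apoa4 read 15.87 and 13.80 beside 3.39. Both were high in arrays where the gut epithelial median was 6.90 and 5.78.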
